A study of Homo sapiens with 2 samples.

Results

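The genes described here encode 10 enzymes of amino acid and one-carbon synthesis: PHGDH, PSAT1 and PSPH (serine), SHMT2 and MTHFD2 (mitochondrial one-carbon metabolism), ASNS (asparagine), GPT2 (alanine), ALDH18A1 and PYCR1 (proline) and CTH (cysteine). They were taken by gene symbol alone from the RNA sequencing table of the study, and all 10 were among its 10987 genes. The table holds 2 libraries of human cells labelled THP1, a monocytic leukaemia line that carries the MLL-AF9 fusion. The library labelled bort came from cells treated for 24 h with bortezomib (bort), an inhibitor of the proteasome, and the other from untreated cells. The purpose of the comparison in the study was to find genes that respond to bort.

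With 1 library per condition there was no replicate, so no difference below has an error, an interval or a p-value, and each is a difference between 2 libraries. In RNA from many cells, fewer cells of a type and less RNA per cell cannot be told apart. The values are FPKM, fragments scaled to the length of the transcript and to the mapped fragments of the library, which allow levels of different genes to be compared within a library. Read depth is unknown. The markers went against the label of a monocytic line in both libraries. Of 12 monocytic markers 5 were in the table, with a summed level of 20.3 FPKM in the untreated and 55.9 FPKM in the bort library, and CD14, CSF1R and MPO were not in it. All 12 erythroid markers were in the table, with sums of 4484 and 4273 FPKM. Of these, 3 (GATA1, KLF1 and EPOR) had at least 2-fold less FPKM + 1 with bort, against 10.2% of all genes. In total 8 of the 12 were lower with bort and 4 higher, among them HBE1 (424.7 and 710.3 FPKM) and RHAG (221.8 and 363.3 FPKM). LYZ and CD68 of the monocytic list had at least 2-fold more, against 8.08% of all genes. Of the 5 monocytic markers 4 were higher with bort and 1, CD33, was lower. Of the 4, S100A9 (0.101 FPKM untreated and 0.937 FPKM with bort) and ITGAM (0.234 and 0.836 FPKM) passed 0.501 FPKM only in the bort library. A gene below that level in both libraries is absent from the table, so the direction of S100A9 and ITGAM was fixed. Because the markers went against the line label, the samples are named by their treatment labels. The part of the monocytic and erythroid markers in the results below was not tested.

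Cells make serine from a glycolytic intermediate in 3 steps, and SHMT2 and MTHFD2 pass a carbon of serine to folate in the mitochondrion, from where it reaches purine and thymidylate synthesis in the cytosol. Proline is made from glutamate, asparagine from aspartate, alanine from pyruvate and cysteine from homocysteine by way of cystathionine. Many of these genes are known targets of ATF4, the transcription factor of the integrated stress response, which acts when amino acids are short or unfolded proteins build up.

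The 10 genes did not move in 1 direction. CTH rose and PYCR1 and GPT2 fell by 2-fold or more in the bort library, while the other 7 lay within 2-fold. MTHFD2 and ASNS were the next highest in fold change, and ALDH18A1 and SHMT2 the next lowest. Fold changes are differences of log2(FPKM + 1), bort minus untreated, which understate the change of genes with low FPKM. By this measure 1 of the 10 genes was higher by 2-fold or more, against 8.08% of all genes in the table, and 2 were lower, against 10.2% of all genes. At 1.5-fold, 3 were higher (CTH, MTHFD2 and ASNS; 20.8% of all genes) and 4 were lower (PYCR1, GPT2, ALDH18A1 and SHMT2; 21.6% of all genes). The median log2 fold change was 0.13 over the 10 genes and 0.0049 over all genes, with a range from -1.27 to 1.96 in the 10. Their summed level was 216 FPKM untreated and 202 FPKM with bort.

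The order of the genes by level was different in the libraries. In the untreated library PYCR1 was the highest of the 10 and ranked 560 among all genes, followed by PSAT1, SHMT2 and ALDH18A1, which lay between 31.9 and 32.9 FPKM. CTH was the lowest, at rank 8704. In the bort library MTHFD2 was the highest and ranked 662 among all genes, PSAT1 was again in position 2, ASNS moved from position 6 to 3, and PYCR1 was in position 4. GPT2 was then the lowest, at rank 10152. Without replicates it cannot be said which neighbours in these orders differ beyond their spread.

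**Figure D1:**
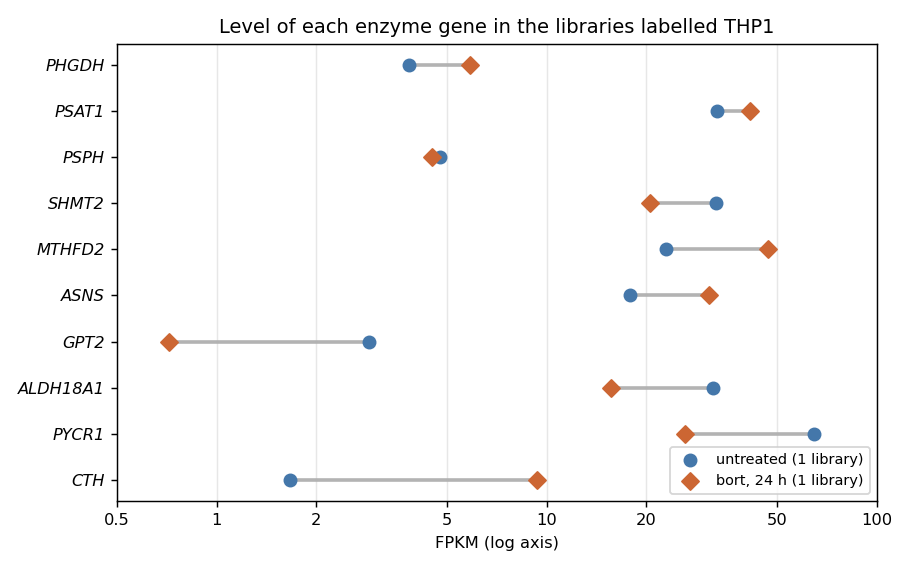
Level of each of the 10 genes in FPKM (log axis) in the untreated library (blue circle) and the bort library (orange diamond), grouped by pathway from serine synthesis at the top to cysteine synthesis at the bottom. Each point is 1 library and there are no error bars. CTH lies far to the right of its untreated value with bort, MTHFD2, ASNS and PHGDH lie to the right, and PYCR1, ALDH18A1, GPT2 and SHMT2 lie to the left.

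The promoters of CTH, MTHFD2 and ASNS, the genes with the highest fold changes, and of ALDH18A1, the gene with the lowest fold change for which a window was found, are shown to set the sequence beside these opposite changes. The windows are RefSeq sequences of GRCh38.p14, 250 bases before to 50 bases after a gene's start, 5′ to 3′ on the strand of the gene, and were found for 6 of the 10 genes. Capitals mark matches, on either strand, to TGATGNAA (core of the element bound by ATF4 with a C/EBP partner), CACGTG (the E-box bound by MYC and related factors) or CCAAT (bound by NF-Y). No matches overlap each other. The windows are chr1:70411018-70411317 (plus strand), chr2:74198365-74198664 (plus strand), chr7:97872359-97872658 (minus strand, the first of 2 starts listed) and chr10:95656662-95656961 (minus strand).
CTH: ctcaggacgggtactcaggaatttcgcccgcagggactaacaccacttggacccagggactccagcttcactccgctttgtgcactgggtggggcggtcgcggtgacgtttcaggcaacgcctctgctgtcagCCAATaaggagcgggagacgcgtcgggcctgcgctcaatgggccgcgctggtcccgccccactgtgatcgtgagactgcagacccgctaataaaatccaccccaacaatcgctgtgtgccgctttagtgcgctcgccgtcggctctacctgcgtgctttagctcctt
MTHFD2: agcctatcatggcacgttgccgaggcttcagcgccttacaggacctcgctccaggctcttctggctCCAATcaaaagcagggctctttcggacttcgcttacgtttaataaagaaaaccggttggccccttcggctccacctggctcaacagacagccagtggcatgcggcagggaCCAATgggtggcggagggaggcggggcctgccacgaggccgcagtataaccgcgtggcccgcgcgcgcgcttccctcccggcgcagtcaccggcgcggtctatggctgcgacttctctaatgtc
ASNS: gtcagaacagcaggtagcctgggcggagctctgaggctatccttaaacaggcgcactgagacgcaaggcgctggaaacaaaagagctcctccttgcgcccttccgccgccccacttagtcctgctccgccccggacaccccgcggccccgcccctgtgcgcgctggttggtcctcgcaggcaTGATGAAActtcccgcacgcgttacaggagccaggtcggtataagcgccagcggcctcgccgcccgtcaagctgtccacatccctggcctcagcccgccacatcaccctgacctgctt
ALDH18A1: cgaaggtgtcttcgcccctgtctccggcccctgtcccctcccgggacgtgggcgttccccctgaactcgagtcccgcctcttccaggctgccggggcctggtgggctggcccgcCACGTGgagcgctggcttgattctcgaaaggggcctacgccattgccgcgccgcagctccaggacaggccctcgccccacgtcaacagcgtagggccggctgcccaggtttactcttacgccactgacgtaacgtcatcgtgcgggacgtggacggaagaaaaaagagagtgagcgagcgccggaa

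The TGATGNAA core was in the ASNS window only among the 6 genes, as TGATGAAA beginning at position -68 from the start, where -1 is the last base before it, and the window of the other ASNS start held none of the 3 motifs. Of all 35116 windows, 3.62% held this core. CACGTG was in the window of ALDH18A1 alone, at -136, against 7.26% of all windows. CCAAT, which 34.6% of all windows held, was in the windows of CTH (-117), MTHFD2 (-184 and -74), PSAT1 (-113, -83 and -52) and PHGDH (-71). These matches describe the letters in the windows and were not tested against the fold changes. No window was found for PSPH, SHMT2, PYCR1 or GPT2.

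The serine pathway showed small differences. PHGDH, which catalyses the first step, was at 3.82 FPKM untreated and 5.84 FPKM with bort, a log2 fold change of 0.50 and a ratio of 1.53. PSAT1, the transaminase of the next step, was at 32.9 and 41.4 FPKM, a log2 fold change of 0.32. PSPH, the phosphatase that releases serine, was at 4.76 and 4.50 FPKM, a log2 fold change of -0.066 that turned to 0.022 and 0.026 under 2 other scalings, so no direction is given for it. PHGDH and PSAT1 were higher in the bort library, and none of the 3 genes reached 2-fold. In both libraries PSAT1 was far above its neighbours in the pathway, with 8.59 times the FPKM of PHGDH in the untreated and 7.08 times in the bort library.

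The mitochondrial one-carbon genes went opposite ways. SHMT2, which splits serine into glycine and a one-carbon unit on folate, was at 32.6 FPKM untreated and 20.6 FPKM with bort, a log2 fold change of -0.64. MTHFD2, which oxidises that folate, was at 22.9 FPKM untreated and 46.8 FPKM with bort. Its log2 fold change of 0.999 stood just short of 2-fold, and the plain ratio of FPKM was 2.04. Only 890 of the 10987 genes had a higher log2 fold change than MTHFD2. SHMT2 was thus the higher of the pair in the untreated library and MTHFD2 in the bort library, with MTHFD2 to SHMT2 ratios of 0.705 and 2.27. Such a ratio within a library does not depend on the scaling of the libraries, but its change between libraries is not free of base composition. With the trend with GC content removed, as described below, the log2 fold changes were 0.68 for MTHFD2 and -0.37 for SHMT2.

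Of the other genes of the mitochondrial branch 1 was below 0 and 4 were above 0 in log2 fold change, beside 50.3% of all genes above 0. This count did not hold with the trend with GC content removed. MTHFD2L (-0.19), ALDH1L2 (-0.23) and SLC25A32 (-0.25) then lay below 0, MTFMT was at 0.027, and the median was -0.23. MTHFD1L, which releases formate in the last step, was at 28.0 FPKM untreated and 17.5 FPKM with bort, a log2 fold change of -0.64, as for SHMT2. MTHFD2L, the paralogue of MTHFD2, was at 1.16 and 1.76 FPKM, so MTHFD2 had 19.8 times its FPKM in the untreated and 26.6 times in the bort library. All 5 further genes of this branch were in the table, with a median log2 fold change of 0.14. ALDH1L2, 1 of the 4 above 0, was at 0.465 FPKM untreated and 0.522 FPKM with bort. It reached 0.501 FPKM, as each gene in the table did in 1 library, only with bort. Its direction was fixed by this. Past 2-fold were 0 in either direction, beside 8.08% higher and 10.2% lower of all genes.

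The cytosolic folate genes were mostly lower. Of 13 in the table (14 in the list), 0 passed 2-fold upwards and 4 downwards, beside 8.08% and 10.2% of all genes. Below 0 in log2 fold change were 11 of the 13, beside 5461 of all 10987 genes, and the median was -0.77. The folate carrier SLC19A1 fell from 12.8 to 2.95 FPKM (log2 fold change -1.81) and TYMS, which makes thymidylate, from 153.6 to 63.4 FPKM (-1.26). FPGS, which retains folates in the cell, fell from 21.2 to 9.88 FPKM (-1.03). The highest was ALDH1L1, at 0.246 and 1.01 FPKM, a low level in both libraries. ALDH1L1 reached 0.501 FPKM, as each gene in the table did in 1 library, only with bort, so its direction was fixed by this. SHMT1, the cytosolic counterpart of SHMT2, was named after its values were seen. It was at 5.62 and 2.77 FPKM (-0.81), lower with bort like SHMT2.

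ASNS, which makes asparagine from aspartate and glutamine, was at 17.9 FPKM untreated and 31.0 FPKM with bort, a log2 fold change of 0.76 and a ratio of 1.74. It had a higher fold change than 85.8% of the genes in the table, and was short of 2-fold. GPT2, the mitochondrial alanine transaminase, fell from 2.89 FPKM untreated to 0.720 FPKM with bort, for a log2 fold change of -1.18. The plain ratio, 4.02-fold lower with bort, was larger because the added 1 FPKM weighs on a gene this low. GPT, the cytosolic paralogue, was not in the table. ASNS and GPT2, both transferring nitrogen to make an amino acid, were thus 6.18-fold apart in FPKM in the untreated library and 43.1-fold apart in the bort library.

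Of the 5 further genes of glutamate, glutamine, aspartate and alanine metabolism in the table, 0 passed 2-fold in either direction. Over all genes 8.08% were higher and 10.2% lower by 2-fold. The lowest was GOT1, the cytosolic aspartate transaminase, at 55.5 FPKM untreated and 36.6 FPKM with bort (log2 fold change -0.58). Their median was -0.0033.

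Both proline genes were lower with bort. ALDH18A1, which makes the first intermediate from glutamate, was at 31.9 FPKM untreated and 15.6 FPKM with bort. Its log2 fold change of -0.985 fell just short of 2-fold, while the plain ratio was 2.04-fold lower. PYCR1, the mitochondrial reductase of the last step, fell from 64.5 FPKM untreated to 26.2 FPKM with bort, for a log2 fold change of -1.27, and 656 of the 10987 genes had a lower one. The PYCR1 to ALDH18A1 ratio was 2.02 untreated and 1.67 with bort, so the pair moved by similar amounts.

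Of the further proline and ornithine genes, 4 were in the table. PYCR3, the cytosolic reductase, fell from 9.03 to 2.85 FPKM (log2 fold change -1.38), the lowest of these. The highest of the list was OAT, which interconverts ornithine and glutamate semialdehyde, at 32.5 and 34.2 FPKM (0.069). PRODH, the first enzyme of proline breakdown, was not in the table.

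CTH had the largest change of the 10 genes. It encodes cystathionine gamma-lyase, which releases cysteine from cystathionine, and rose from 1.66 FPKM in the untreated to 9.33 FPKM in the bort library, a log2 fold change of 1.96 and a ratio of 5.61. Only 95 of the 10987 genes had a higher log2 fold change. CBS, the enzyme just before it in the pathway, fell from 22.6 FPKM untreated to 5.38 FPKM with bort, for a log2 fold change of -1.89. CTH had 0.0736 times the FPKM of CBS in the untreated and 1.73 times in the bort library, so CBS was the higher of the pair without bort and CTH with it.

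Of the 5 further methionine cycle and transsulfuration genes in the table, CBS was the 1 gene past 2-fold, beside 10.2% of all genes lower. The highest was MAT2B, a regulatory subunit of methionine adenosyltransferase, at 7.06 and 11.3 FPKM (log2 fold change 0.61). In the arginine list ARG2, the mitochondrial arginase, rose from 7.04 to 19.8 FPKM (1.37), and the lowest was ASL, argininosuccinate lyase, at 15.9 and 7.79 FPKM (-0.94). GCSH, a carrier protein of the glycine cleavage system, fell from 17.6 to 8.03 FPKM (-1.04), while DLD of the same system was at 36.9 and 37.4 FPKM (0.021). In the list of branched-chain and serine breakdown enzymes BCAT2 was lowest, at 17.0 and 8.01 FPKM (-0.999), and BCAT1 highest, at 10.8 and 12.0 FPKM (0.14).

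Across all of these enzyme lists, 41 of 53 further genes had a value, of which 1 passed 2-fold upwards and 7 downwards, and the median log2 fold change was -0.51. Against the background of 8.08% higher and 10.2% lower among all genes, the lower genes in these lists were more frequent than the higher ones, with no test of the difference. The summed level of the 41 was 1081 FPKM untreated and 724 FPKM with bort.

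**Figure D2:**
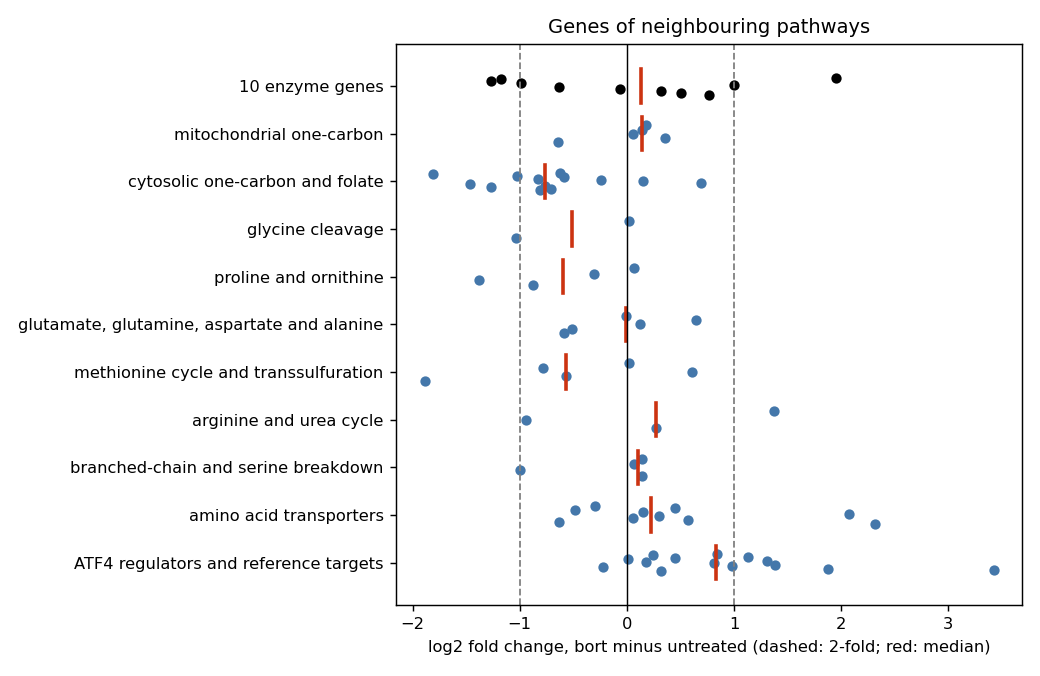
Log2 fold change on FPKM + 1, bort minus untreated, for the 10 enzyme genes (black) and for the genes of each further list (blue), 1 point per gene, spread vertically only to keep points apart. Red bars are medians and dashed lines mark 2-fold. The cytosolic one-carbon and folate genes have a median of -0.77, the ATF4 list has a median of 0.83, and the 10 enzyme genes spread over both sides of 0.

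Amino acid transporters and the ATF4 pathway were set beside the enzymes. Of 11 transporters in the list 10 had a value, of which 2 passed 2-fold upwards and 0 downwards, beside 8.08% and 10.2% of all genes. SLC7A11, which imports cystine, rose from 0.656 to 7.26 FPKM (log2 fold change 2.32) and SLC38A2, which imports neutral amino acids, from 12.0 to 53.6 FPKM (2.07). The lowest was SLC7A5, at 49.9 and 31.8 FPKM (-0.63). SLC7A11 and CTH, which both supply cysteine, were the highest of their respective lists.

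In the ATF4 list 14 genes had a value, of which 5 passed 2-fold upwards and 0 downwards, beside 8.08% and 10.2% of all genes, with a median of 0.83. ATF4 itself was at 153.8 and 192.0 FPKM (log2 fold change 0.32). DDIT3, which encodes CHOP, had the largest rise of the list (3.43), followed by ATF3 (1.88), CEBPG (1.38), SESN2 (1.30) and EIF2AK3 (1.13). CEBPB was at 0.98, TRIB3 at 0.82, CHAC1 at 0.17 and ATF5, the lowest, at -0.22. In this list 13 of 14 genes were above 0, against 5 of the 10 enzyme genes and 50.3% of all genes, with no test of these differences. CTH at 1.96 was above every gene of the list but DDIT3, MTHFD2 at 0.999, ASNS at 0.76, PHGDH at 0.50 and PSAT1 at 0.32 lay within its range, and PYCR1, ALDH18A1, GPT2 and SHMT2 were below every gene in it.

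Fold changes in these libraries moved with the base composition of the transcripts. Over the 10907 genes (99.3%) with a transcript in GENCODE 29, the Spearman correlation of log2 fold change with GC content was -0.49, as a description across genes that share the same 2 libraries. The median log2 fold change was 0.57 in the tenth of genes with the lowest GC content and -0.62 in the tenth with the highest. The 10 enzyme genes lay from 41.4% GC (MTHFD2) to 61.8% GC (PYCR1), and over these 10 the Spearman correlation was -0.70. MTHFD2, PSAT1 (42.3%), CTH (43.3%) and ASNS (47.0%) had low GC content and log2 fold changes above 0. SHMT2 (55.2%), GPT2 (55.3%) and PYCR1 had high GC content and log2 fold changes below 0. PHGDH (58.3%) and ALDH18A1 (49.3%) stood apart from this order, PHGDH with a higher fold change than its GC content would place it and ALDH18A1 with a lower one.

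With the trend with GC content removed, 1 of the 10 genes was higher by 2-fold or more (CTH, 1.73), against 6.85% of all genes, and 0 were lower, against 6.18%. PYCR1 then had a log2 fold change of -0.79, GPT2 of -0.91 and ALDH18A1 of -0.96, the lowest of the 10. PHGDH became the second highest, at 0.87, followed by ASNS (0.69) and MTHFD2 (0.68), while PSAT1 was at 0.044. CTH, PHGDH, ASNS and MTHFD2 stayed above 0 and PYCR1, GPT2, ALDH18A1 and SHMT2 (-0.37) below 0. Of the further genes named above as past 2-fold, FPGS (-0.46), PYCR3 (-0.85), EPOR (-0.94) and EIF2AK3 (0.96) then lay within 2-fold. The others stayed past it, among them SLC19A1 (-1.22), TYMS (-1.22), GCSH (-1.40), CBS (-1.49), ARG2 (1.31), SLC7A11 (1.69), SLC38A2 (1.57) and DDIT3 (3.46). CEBPB (1.66), TRIB3 (1.26) and ALDH1L1 (1.05) came to lie past it. Among the named genes within 2-fold, OAT (-0.27), BCAT1 (-0.36) and DLD (-0.42) also turned to below 0. ATF5 (0.19) turned to above 0, and MAT2B was at 0.033. ALDH4A1 (0.12), SDSL (0.61) and MPST (0.43) were then the highest in the lists of OAT, BCAT1 and MAT2B, respectively. In the ATF4 list 7 of 14 genes were then higher by 2-fold or more, against 6.85% of all genes, with a median of 1.07. What part base composition had in the deposited values was not tested further.

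**Figure D3:**
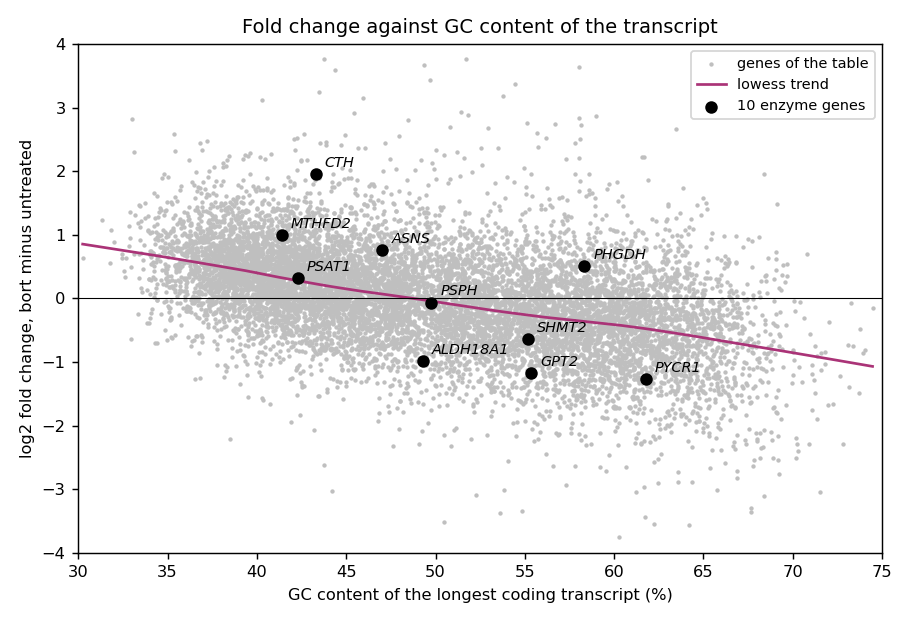
Log2 fold change on FPKM + 1, bort minus untreated, against the GC content in percent of the longest coding transcript of each gene in GENCODE 29. Grey points are genes of the table, the line is the lowess trend and black points are the 10 enzyme genes. The axis ends at 4 in both directions, which leaves out 8 genes. CTH, PHGDH, ASNS and MTHFD2 lie above the line, and ALDH18A1, GPT2, PYCR1 and SHMT2 below it.

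The directions of 9 of the 10 genes were the same under each other setting that gave them a value, PSPH being the exception. CTH was past 2-fold under all 9 other settings, PYCR1 under 8 of 9 and GPT2 under 7 of 8. MTHFD2 passed 2-fold under 5 of 9 and ALDH18A1 under 4 of 9, so whether these are counted as 2-fold depended on the pseudocount and the scaling. ASNS, PHGDH, PSAT1, PSPH and SHMT2 passed it under none.

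**Figure D4:**
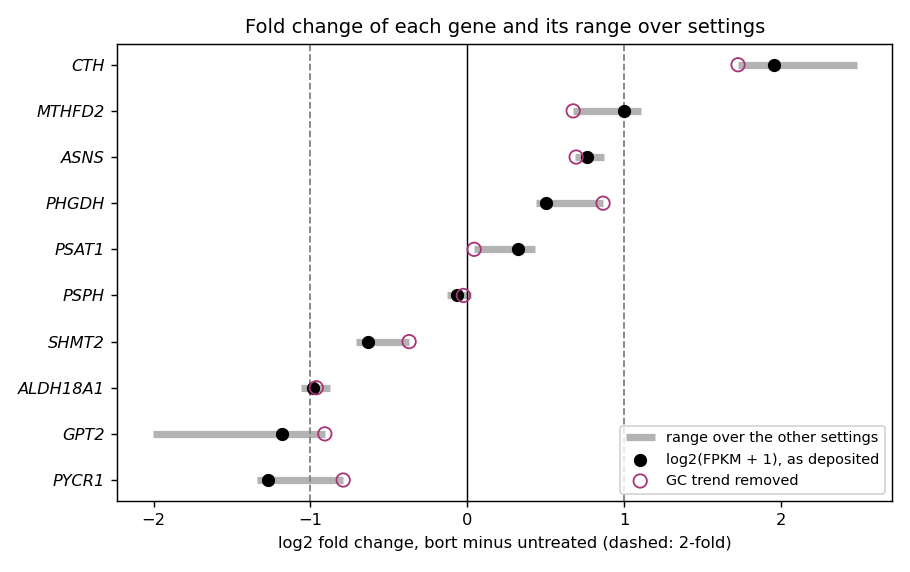
Log2 fold change of each gene, bort minus untreated. Black points are on FPKM + 1 as deposited, and open circles have the GC trend removed. Grey bars span the values under all other pseudocounts, scalings and filters, and with the GC trend removed. Dashed lines mark 2-fold. CTH is past 2-fold in its whole range, and the bars of MTHFD2, ALDH18A1, PYCR1 and GPT2 cross the 2-fold lines.

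Several of these genes could share reads with other annotated genes. In GENCODE 29, MTHFD2 has 7 numbered pseudogenes, ASNS and PSAT1 have 4 each and PSPH has 1, none of them in the deposited table, so the division of reads between gene and copy is uncertain. PYCR1 overlaps the coding gene MYADML2 on the same strand. SHMT2 overlaps NDUFA4L2 and MTHFD2 overlaps SLC4A5 on the opposite strand, and neither these nor MYADML2 are in the table. The study's methods describe stranded libraries while the sample labels name another kit, so it is unclear whether strand was used in counting. PHGDH, ALDH18A1 and GPT2 overlap no other gene and have no numbered pseudogene.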

How the data were processed

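RNA of 1 culture labelled bort-treated and 1 labelled untreated was sequenced. Trimmed reads were aligned by the authors with HISAT2 2.0.4, transcripts were reconstructed with StringTie 1.2.3, and the authors deposited FPKM per gene. The submitters' processing notes name GRCh37, and the annotation is not given in the sources used here. Each gene reached at least 0.501 FPKM in 1 library. Depth could not be recovered, since only 15 and 20 genes with a single transcript lay between 0 and 0.2 FPKM.

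Fold changes are differences of log2(FPKM + 1). With 1 library per condition no test was made. GC content came from the longest coding transcript in GENCODE 29, matched by gene identifier, and its trend was removed by lowess (span 0.3). Of 7 symbols on a pair of identifiers the first was used, and none is an enzyme named here.

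The enzymes and lists were chosen with earlier results of these data known. Genes named from each further list are its highest and lowest and those past 2-fold, with 5 fixed names in the ATF4 list; some of these are not reported here. The motifs, printed promoters and ratios were chosen after values were seen. Calculations were tested on simulated data. Python 3.11.15, numpy 2.4.6, pandas 2.3.3, statsmodels 0.14.6 and matplotlib 3.10.9 were used.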

Additional observations from a re-analysis of the deposited data

How the results depend on the processing

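Values were recomputed with other pseudocounts, a filter of 1 FPKM in both libraries, 4 other scalings, the GC trend removed and other thresholds. No paired analysis was possible because there is a single library on either side, which also prevents leaving a library out. The number of the 10 enzyme genes higher by 2-fold, 1 as reported, was 2 with a pseudocount of 0.1 or 0.5 FPKM or none, with upper quartile scaling and with totals without the 20 most abundant genes, the added gene being MTHFD2. The number lower, 2 as reported, was 3 with a pseudocount of 0.1 or 0.5 FPKM or none and with equal totals, the added gene being ALDH18A1, 1 with the filter, which removes GPT2, and 0 with the GC trend removed. A threshold of 1.5-fold gave 3 higher and 4 lower genes, and 4-fold gave 0 in both directions. Over all genes, 888 of 10987 were higher and 1125 lower as reported. These became 1576 and 1658 with a pseudocount of 0.1 FPKM, 1181 and 1351 with 0.5, and 1654 and 1708 of 10938 with none. They were 1086 and 939 with upper quartile scaling, 1100 and 931 without the 20 most abundant genes and 757 and 1264 with equal totals. The filter gave 710 and 959 of 9139, and removing the GC trend 747 and 674 of 10907. At 1.5-fold 2282 and 2378 passed, and at 4-fold 92 and 135.

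Among the 41 further enzymes, 1 higher and 7 lower as reported became 2 higher with a pseudocount of 0.1 or 0.5 FPKM, with none and with the GC trend removed, and 11 lower without a pseudocount. The number lower was 5 with the GC trend removed, with upper quartile scaling and with totals without the 20 most abundant genes. A threshold of 1.5-fold gave 4 higher and 18 lower, beside 20.8% and 21.6% of all genes, and 4-fold gave 0 in both directions. PSPH changed sign, to 0.022 with upper quartile scaling and 0.026 with totals without the 20 most abundant genes. GPT2 moved most, to -1.87 with a pseudocount of 0.1 FPKM and -2.01 with none. Of 89 values of the 10 genes, 87 kept their direction. The median of all genes stayed within 0.1 of 0 on the log2 scale under every scaling. Unknown depth means that counting error cannot be given, also for CTH and GPT2, which were the lowest of the 10 genes in the untreated and the bort library, respectively.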
